A study of Mus musculus with 6 samples.

Results

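The replication-dependent histone genes encode the bulk histones H1, H2A, H2B, H3 and H4 that package newly copied DNA. The 48 genes described here are the protein-coding entries of the deposited table of normalized counts whose mouse symbol follows the naming of these families, out of 16448 genes in that table and 43430 in the full count table. Among the rows of that table, symbol and biotype chose them and no fold change or test entered. The table itself holds the genes with at least 10 counts over the 6 libraries, and 13 genes named in the same way lie outside it, with 0 to 6 counts each. They comprise 5 H1, 11 H2A, 11 H2B, 11 H3 and 10 H4 genes. RNA was sequenced from double-positive thymocytes, the CD4+CD8+ stage of T cell development, sorted by flow cytometry from thymus of C57BL/6 mice. Of the libraries, 3 came from Mettl14 fl/fl mice with a CD4-Cre transgene (KO), in which Cre removes the floxed allele in cells that have turned on Cd4, and 3 from littermate controls labelled WT, whose alleles and Cre status are not given further in the sources used here, nor is the age of the mice. Nothing in the labels ties the libraries to separate animals. The p-values therefore reflect only the scatter among these 6 libraries, part of which may be technical. The comparison asks how histone transcript levels differ when Mettl14, a subunit of the enzyme that writes N6-methyladenosine on RNA, is deleted at this stage.

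As background, these genes are transcribed mainly during S phase, when dividing cells need histones in step with DNA synthesis, and they sit in clusters without most of the introns found elsewhere. Their messages usually end not in a poly(A) tail but in a short stem-loop, bound by Slbp, which directs cleavage of the 3′ end, export, translation and decay. A few of the genes also give polyadenylated messages, in differentiated cells above all. Variant histones such as H3f3b and H2az1, whose genes lie outside the clusters, carry poly(A) tails and are made throughout the cell cycle. Double-positive thymocytes begin as large dividing cells and then rest while they rearrange the alpha chain of the T cell receptor. The labels name an Illumina TruSeq kit without saying whether poly(A) RNA was selected.

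The stem-loop is shown for members named below, because it marks where a replication-dependent message normally ends and the deposited gene models can be read against it. Each line gives the stem-loop in capitals with 5 bases on either side, 5′ to 3′ on the gene's strand, from the GENCODE transcripts of GRCm38, the assembly also called mm10, with T for U.
H1f2: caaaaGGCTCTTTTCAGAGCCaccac
H2ac8: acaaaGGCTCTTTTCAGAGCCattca
H2bc8: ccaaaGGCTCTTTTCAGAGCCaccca
H2bc12: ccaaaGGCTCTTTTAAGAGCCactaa
H3c3: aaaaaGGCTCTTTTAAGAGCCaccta
H4c9: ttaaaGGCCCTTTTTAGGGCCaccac
H4c4: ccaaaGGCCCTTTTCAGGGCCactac
H4c2: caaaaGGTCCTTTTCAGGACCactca
These lie on the plus strand at chr13:23739507-23739532 (H1f2), chr13:23571838-23571863 (H2bc8), chr13:22036295-22036320 (H2bc12), chr13:23581945-23581970 (H4c4) and chr13:23757361-23757386 (H4c2). On the minus strand they lie at chr13:23570663-23570688 (H2ac8), chr13:23745042-23745067 (H3c3) and chr13:22040961-22040986 (H4c9). A stem-loop was found in transcripts of 31 of the 48 members and of 59 of all 55450 annotated genes, or 0.106%. The search used a fixed pattern of 16 bases, so a stem-loop with other letters would be missed. Some of the other members, such as H2ac13 and H3c10, have annotated transcripts that hold only the coding part. There a stem-loop beyond the coding part could not be found, so its absence from the search does not mean that the gene lacks it. The stem differed by class. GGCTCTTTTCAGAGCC was found in 17 members, of classes H1, H2A, H2B and H3. The 8 H4 genes with a stem-loop carried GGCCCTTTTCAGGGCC (4 genes), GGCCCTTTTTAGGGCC (2 genes) or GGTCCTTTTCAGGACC (2 genes), and no gene of another class carried these letters. No stem-loop was found in the annotated transcripts of H2bc21 or H2bc4, which are among the most abundant members.

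Promoter sequence is shown for 4 members whose values are described in full below, H1f2 and H4c9 as the most abundant H1 and H4 genes, H2bc8 and H2bc12 as the H2B genes with the lowest and highest fold changes. Each is the 250 bases before the RefSeq start on GRCm38.p6, 5′ to 3′ on the gene's strand, with matches to the octamer ATTTGCAT, the H1 box AAACACAA, the CCAAT box and the TATA box TATAAA, on either strand, in capitals. Matches on the other strand read as ATTGG and TTTATA for the last pair of motifs.
H1f2: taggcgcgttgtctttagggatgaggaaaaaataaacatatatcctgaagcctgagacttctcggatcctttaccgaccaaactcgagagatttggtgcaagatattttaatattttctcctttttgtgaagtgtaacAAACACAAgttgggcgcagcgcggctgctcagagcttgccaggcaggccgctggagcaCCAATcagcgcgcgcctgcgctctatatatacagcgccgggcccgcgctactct
H2bc8: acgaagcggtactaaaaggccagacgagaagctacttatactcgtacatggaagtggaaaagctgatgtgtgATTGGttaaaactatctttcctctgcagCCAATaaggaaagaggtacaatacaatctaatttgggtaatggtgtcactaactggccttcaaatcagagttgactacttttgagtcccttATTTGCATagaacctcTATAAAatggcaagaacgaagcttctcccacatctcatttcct
H2bc12: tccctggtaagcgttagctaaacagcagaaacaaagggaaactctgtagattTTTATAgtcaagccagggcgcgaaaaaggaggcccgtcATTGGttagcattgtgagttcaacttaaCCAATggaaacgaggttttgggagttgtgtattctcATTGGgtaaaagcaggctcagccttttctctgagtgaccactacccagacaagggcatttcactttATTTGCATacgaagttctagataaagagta
H4c9: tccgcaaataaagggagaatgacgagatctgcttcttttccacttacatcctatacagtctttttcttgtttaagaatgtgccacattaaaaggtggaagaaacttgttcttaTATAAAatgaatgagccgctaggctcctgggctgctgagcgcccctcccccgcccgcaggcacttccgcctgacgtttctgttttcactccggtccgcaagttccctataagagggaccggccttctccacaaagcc
H1f2 (chr13:23738557-23738806, plus strand) held the H1 box 112 bases and a CCAAT box 54 bases before the start. H2bc8 (chr13:23571150-23571399, plus strand) held an octamer at 59 and a TATA box at 43 bases before the start, H2bc12 (chr13:22035571-22035820, plus strand) an octamer at 30, and H4c9 (chr13:22041363-22041612, minus strand) a TATA box at 137. RefSeq gave 42 promoters for 41 of the 48 members. The octamer, which binds Pou2f1, was in 4 of 9 H2B promoters, on the gene's strand, in 5 of 10 H2A promoters, on the other strand, and in none of the 23 H1, H3 and H4 promoters, against 1.60% of all 32851 promoters. The H1 box was in 3 of 5 H1 promoters and 1 of 10 H2A promoters, against 1.67% of all. CCAAT was in 35 of 42 member promoters (33.8% of all) and TATAAA in 21 of 42 (12.4% of all). H2A and H2B genes that face away from each other lie 238 to 301 bases apart, so their 250-base promoters can overlap. The same site can then count for both classes. All these matches describe letters, not bound sites.

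Counts in genes ranged from 29500254 to 33377056 per library. Mettl14 was at 52.1, 58.8 and 55.8 CPM in WT replicates 1 to 3 and at 42.2, 40.3 and 36.4 CPM in KO replicates 1 to 3, where CPM is counts per 1000000 after TMM scaling. Its log2 fold change was -0.49, with an adjusted p of 0.289 by edgeR. The groups did not overlap. These counts cover the whole gene, and which exons the floxed allele loses is not given in the sources used here. The sort was reflected in Cd4 (1969 ± 171 CPM in WT, 2051 ± 183 in KO, SD, n = 3) and Cd8a (3114 ± 177 and 2993 ± 129). In bulk RNA, fewer cells of a kind and less RNA per cell cannot be told apart.

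Histone gene counts were a small part of each library. The 48 members together took 146 counts per 1000000 gene counts (exact 95% interval, counting error only, 142 to 150) in WT replicate 1, 101 (97.3 to 104) in WT replicate 2 and 52.8 (50.2 to 55.5) in WT replicate 3. In KO replicates 1 to 3 they took 92.7 (89.3 to 96.2), 84.8 (81.5 to 88.2) and 62.7 (59.99 to 65.5). The WT libraries thus held both the highest and the lowest value, and the KO values lay between them. Per kilobase of the deposited gene length (RPKM), the median member was at 0.70 over the 6 libraries, the median tested gene at 4.59, and 4 of the 48 members lay above the latter. By the same measure the 11 replication-independent variants had a median of 23.6 RPKM, the S phase genes 27.4 RPKM and the G2 and mitosis genes 40.2 RPKM.

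A few genes made up most of the histone counts. H2bc21, an H2B gene on chromosome 3, took 37.0% of the 17127 member counts, the linker histone gene H1f2 took 24.1%, H4c9 took 7.19% and H2bc4 took 5.21%. Their mean levels were 12.8 RPKM for H2bc21, 13.5 for H1f2, 8.90 for H4c9 and 6.39 for H2bc4, and H2bc8 followed at 4.56. At the other end, 29 of the 48 members had under 100 counts over all 6 libraries, and H2ac10 had 10. By class, H2B held 51.4% of the member counts, H1 27.7%, H4 12.3%, H3 4.54% and H2A 3.99%. The median level within a class was 1.35 RPKM for H1, 0.949 for H2B, 0.887 for H4, 0.562 for H2A and 0.361 for H3.

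**Figure D1:**
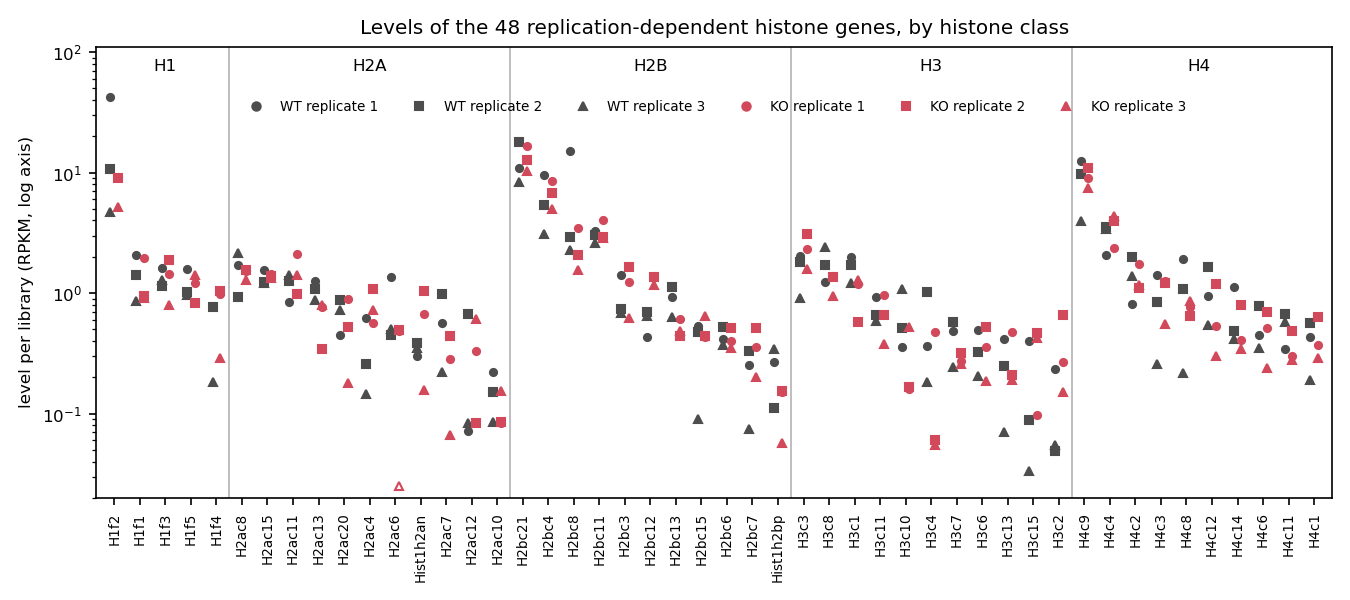
Level of each of the 48 histone genes in each library (RPKM, log axis), grouped by class and ordered by mean level within it, with WT in grey and KO in red, the symbol shape giving the replicate and an open symbol at the bottom a value of 0. Most genes lay below the median tested gene (4.59 RPKM), and WT replicate 1 stood far above the other libraries for H1f2 and H2bc8.

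The members lie in 3 stretches of the genome (mm10). The stretch at 21715763 to 22043676 on chromosome 13 held 16 genes and 14.1% of the member counts. The stretch at 23531050 to 23764358 on chromosome 13 held 27 genes and 47.0%, and that at 96220361 to 96269141 on chromosome 3 held 5 genes and 38.9%, nearly all of it H2bc21. In 9 places an H2A and an H2B gene stood head to head with 238 to 301 bases between them, and the H2B gene had the higher level per kilobase in 5 of the 9. The gap was widest where H2bc21 (12.8 RPKM) faced H2ac20 (0.606 RPKM).

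After the filter on low counts, 28 of the 48 members were tested, and these held 95.5% of the member counts. The filter asks for about 10 counts in as many libraries as a group holds. Of the 28, 18 reached it in all 6 libraries, 7 in all 3 libraries of neither group, and 3 in all libraries of only 1 group (H2ac13 and H3c1 in WT, H2bc12 in KO). For these 3, the filter itself favours a difference.

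None of the 28 tested members differed between KO and WT at an adjusted p under 0.05, in a comparison where edgeR called 0.0383% of 13039 genes (0.00767% higher in KO and 0.0307% lower). DESeq2 and limma-voom also called none of them. With an unadjusted p under 0.05 there was 1 member by edgeR, H2bc12, against 6.72% of all tested genes (3.41% higher and 3.31% lower), 2 by DESeq2 and 1 by limma-voom. Of the 28, 14 had a log2 fold change (KO minus WT) above 0 and 14 below, against 48.9% of all tested genes above 0, and the median was -0.018 against -0.004 for all tested genes. Without WT replicate 1, 19 members were above 0 and the median was 0.17, and without WT replicate 3, 8 were above 0 and the median was -0.15, with 4 members at an unadjusted p under 0.05 (H1f2, H2bc8 and H4c8 lower, H2bc12 higher), where 11.9% of all tested genes were. The groups did not overlap for 2 of the 28, H2bc12 higher and H2ac13 lower in KO, or 1 in each direction, against 12.6% of all tested genes (6.59% higher and 5.97% lower). Both reached the count filter in all libraries only of the group where they were higher, so the filter itself favours this separation.

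The precision was low for most members. The standard error of the log2 fold change had a median of 0.393 over the 28, with a range of 0.24 to 0.832, against a median of 0.129 over all tested genes. The fold changes ran from -1.52 to 1.13, and the adjusted p from 0.63 to 0.995. By class, the median log2 fold change was -0.05 for H1, -0.14 for H2A, 0.14 for H2B, 0.01 for H3 and -0.05 for H4.

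**Figure D2:**
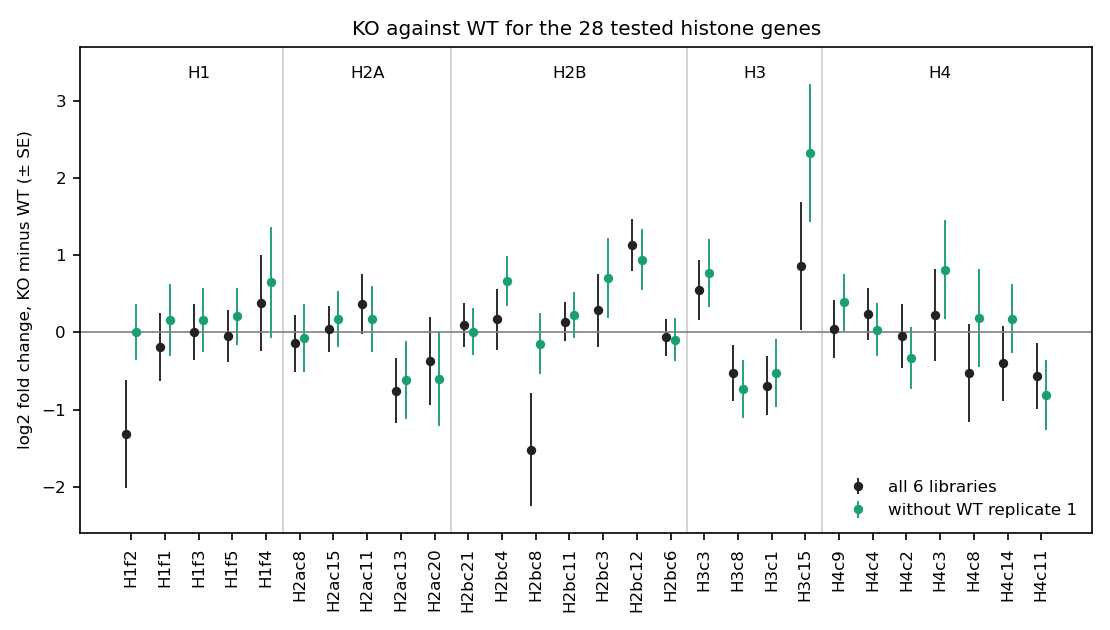
Log2 fold change, KO minus WT, of the 28 tested histone genes with its standard error (edgeR), by class, with all 6 libraries and without WT replicate 1. With all libraries H1f2 (-1.32) and H2bc8 (-1.52) lay lowest, and without WT replicate 1 they lay at 0.01 and -0.14.

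The H1 genes encode linker histones, which bind the DNA between nucleosomes. H1f2 (chr13:23738808-23740367, plus strand) was at 66.2, 16.8 and 7.28 CPM in WT replicates 1 to 3 and at 14.2, 13.99 and 8.15 CPM in KO replicates 1 to 3. WT replicate 1 stood alone, with 2263 counts where the others had 213 to 554, and the KO values lay within the WT range. Its log2 fold change of -1.32 had a standard error of 0.70 and an edgeR adjusted p of 0.767, and without WT replicate 1 it was 0.01 (SE 0.366, adjusted p = 0.997). H1f2 was 46.4% (exact 95% interval 45.01 to 47.8) of the member counts in WT replicate 1 and 12.97% to 16.8% in the other 5 libraries. H1f1 was at 1.32, 0.908 and 0.547 CPM in WT and at 1.26, 0.61 and 0.589 CPM in KO (log2 fold change -0.18), and H1f3 at 1.20, 0.848 and 0.957 CPM in WT and at 1.06, 1.39 and 0.589 CPM in KO (0.01). Both overlapped between groups, and neither repeated the excess of H1f2 in WT replicate 1.

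The H2A genes encode a core histone that pairs with H2B. H2ac8 (chr13:23570662-23571121, minus strand) was at 0.79, 0.424 and 0.991 CPM in WT and at 0.696, 0.711 and 0.589 CPM in KO (log2 fold change -0.14). H2ac15 was at 0.478 to 0.615 CPM in WT and 0.527 to 0.564 CPM in KO (0.05), and H2ac11 at 0.41 to 0.683 CPM in WT and 0.474 to 1.03 CPM in KO (0.37). For these 3, the most abundant H2A genes per kilobase, the groups overlapped. H2ac13 (chr13:21716422-21716814, plus strand) was at 0.497, 0.424 and 0.342 CPM in WT and at 0.298, 0.135 and 0.31 CPM in KO. Its groups did not overlap, and its log2 fold change of -0.75 had a standard error of 0.421 and an edgeR adjusted p of 0.77. Only 9.88% of its 50-base windows occur in no other gene, so its counts are uncertain, and it reached the count filter in all libraries of WT only.

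The H2B genes included the member with the most counts and the largest fold changes in each direction. H2bc21 (chr3:96221119-96223738, plus strand) was at 28.5, 47.0 and 21.8 CPM in WT and at 43.4, 33.6 and 27.2 CPM in KO. The KO values lay within the WT range, and its log2 fold change of 0.10 had a standard error of 0.282 and an edgeR adjusted p of 0.956. Here WT replicate 1 was not the highest library, unlike for H1f2. H2bc4 (chr13:23684199-23692488, plus strand) was at 6.99, 3.97 and 2.29 CPM in WT and at 6.30, 4.98 and 3.69 CPM in KO, also within the WT range, with a log2 fold change of 0.17 that became 0.67 (adjusted p = 0.651) without WT replicate 1.

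H2bc8 (chr13:23571408-23571884, plus strand) was at 7.17, 1.39 and 1.09 CPM in WT and at 1.66, 0.982 and 0.744 CPM in KO. As for H1f2, WT replicate 1 stood alone, with 245 counts where the other 5 libraries had 24 to 50. Its log2 fold change of -1.52 had a standard error of 0.729 and an edgeR adjusted p of 0.758, and without WT replicate 1 it was -0.14 (SE 0.40, adjusted p = 0.952). Its head-to-head neighbour H2ac8, 286 bases away, did not share the excess, since it was higher in WT replicate 3 than in WT replicate 1.

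H2bc12 (chr13:22035870-22036345, plus strand) was the member with the lowest p. It had 7, 11 and 9 counts in WT and 20, 19 and 18 in KO, or 0.205, 0.333 and 0.307 CPM against 0.663, 0.644 and 0.558 CPM. Every KO library was above every WT library. The log2 fold change was 1.13 (SE 0.341, unadjusted p = 0.0108), which did not pass adjustment over all genes (edgeR adjusted p = 0.63), and it ran from 0.94 to 1.28 as each library was left out. Its means rest on few counts, 25.8% of its 50-base windows occur in no other gene, and it reached the count filter in all libraries of KO only.

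The H3 and H4 genes encode the pair of core histones at the heart of the nucleosome. H3c3 (chr13:23745013-23745501, minus strand) was at 0.995, 0.878 and 0.444 CPM in WT and at 1.13, 1.52 and 0.775 CPM in KO, with overlapping groups (log2 fold change 0.55, edgeR adjusted p = 0.804). H3c8 was at 0.527 to 1.02 CPM in WT and 0.403 to 0.597 CPM in KO (-0.52), and H3c1 at 0.649 to 1.05 CPM in WT and 0.305 to 0.682 CPM in KO (-0.69). All 3 overlapped between the groups, and their fold changes had both signs. H3c15, singled out after its values were seen, had 14, 3 and 1 counts in WT and 3, 14 and 14 in KO. Its log2 fold change was 0.86, with the largest standard error of the tested members (0.832, edgeR adjusted p = 0.854), and without WT replicate 1 it was 2.32 (SE 0.896, adjusted p = 0.602).

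H4c9 (chr13:22040636-22041362, minus strand), the most abundant H4 gene, was at 9.04, 7.11 and 2.90 CPM in WT and at 6.5, 7.89 and 5.36 CPM in KO. The KO values lay within the WT range, and its log2 fold change of 0.05 had a standard error of 0.376 and an edgeR adjusted p of 0.984. H4c4 was at 0.819 to 1.39 CPM in WT and 0.928 to 1.70 CPM in KO (0.25), and H4c2 at 0.322 to 0.787 CPM in WT and 0.44 to 0.696 CPM in KO (-0.05). H4c2 overlaps a gene on the opposite strand, 4930558J22Rik, and the strand setting of the counting is not given in the sources used here, so reads of the pair cannot be told apart.

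Summed over the 48 members, the level was 142.7, 99.6 and 53.2 CPM in WT replicates 1 to 3 (98.5 ± 44.7, SD, n = 3) and 94.8, 85.4 and 62.8 CPM in KO replicates 1 to 3 (81.0 ± 16.4). The difference between the means was smaller than the spread of WT, and without WT replicate 1 the WT mean was 76.4 CPM, below that of KO. Without H1f2 and H2bc21, the other 46 members summed to 36.0 ± 11.9 CPM in WT and 34.1 ± 5.74 CPM in KO. The H1 sum varied most, at 70.5, 19.9 and 9.63 CPM in WT and 18.1, 17.4 and 10.6 CPM in KO, and the H2A sum least, at 3.48 to 3.98 CPM in WT and 2.94 to 4.11 CPM in KO. In both groups replicate 3 had the lowest total. The 11 replication-independent variants summed to 2295 ± 95.9 CPM in WT and 2134 ± 93.6 CPM in KO, 24.7 times the member total over the 6 libraries.

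**Figure D3:**
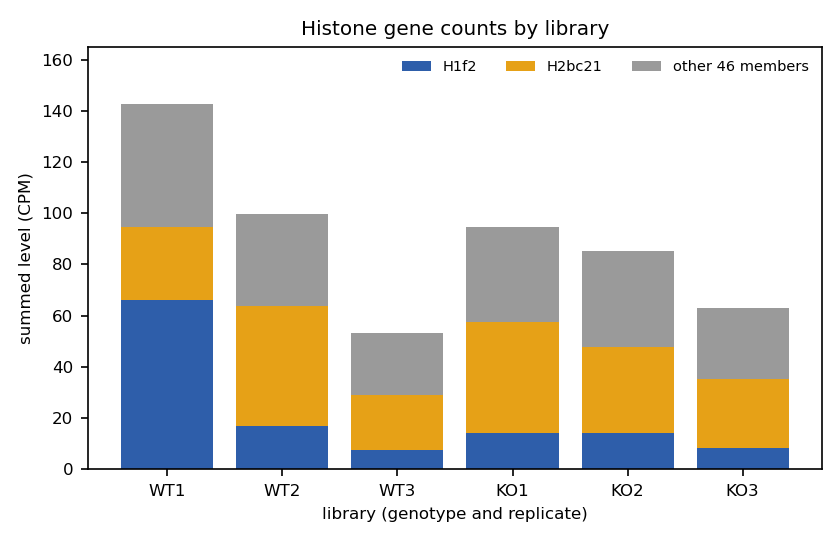
Summed level of the 48 histone genes (CPM) in each library, stacked by H1f2, H2bc21 and the other 46 members together. The bar of WT replicate 1 reached 142.7 CPM, with 66.2 CPM from H1f2, and that of WT replicate 3 reached 53.2 CPM.

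The spread between WT libraries was shared by many members. WT replicate 1 was the highest of the 6 libraries for 12 of the 28 tested members (27.7% of all tested genes), and WT replicate 3 was the lowest for 12 (15% of all tested genes), with KO replicate 3 lowest for 8. The median deviation of the 28 from their gene means was 0.33, 0.08 and -0.30 on the log2 scale in WT replicates 1 to 3 and 0.09, 0.06 and -0.23 in KO replicates 1 to 3. The class H4 median was 0.56 in WT replicate 1 and -0.34 in WT replicate 3, that of class H1 was 0.44 and -0.53, and that of class H3 was 0.38 and -0.48. Class H2B stood at 0.09 and -0.47, with its highest median in KO replicate 1 (0.36). Class H2A did not fall in WT replicate 3 below the gene means, with medians of 0.18 and 0.12. Genes of DNA replication, whose products work in the same phase, did not run the same way: the 27 S phase genes had medians of -0.40, 0.27 and 0.25 in WT and -0.07, -0.06 and 0.02 in KO. The 18 G2 and mitosis genes had -0.69, 0.11 and 0.33 in WT and 0.27, -0.15 and 0.11 in KO. The library with the highest histone gene median was thus the lowest for both cell cycle lists. The part of any library difference in the results was not tested.

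**Figure D4:**
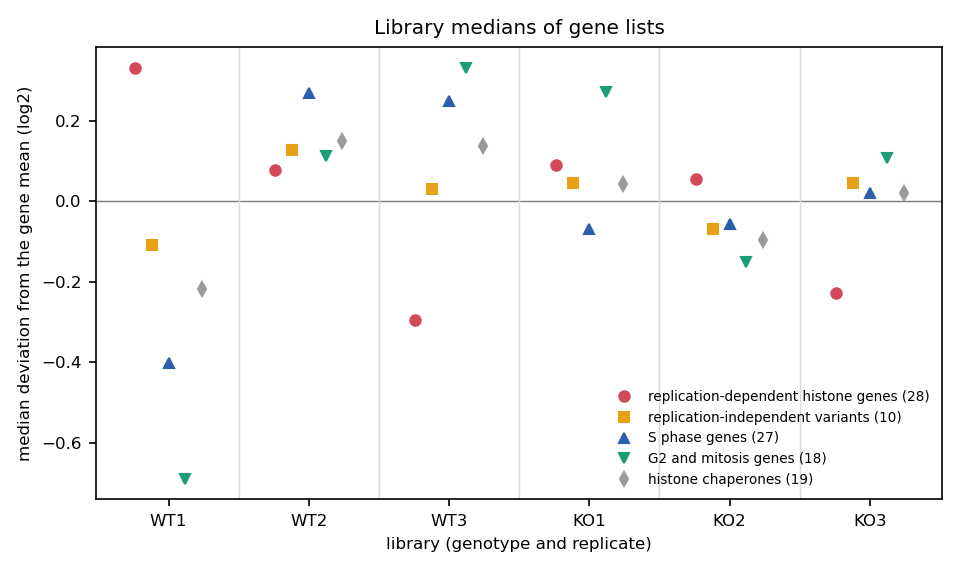
Median deviation from the gene mean over the 6 libraries (log2) for the tested histone genes and 4 other gene lists, with the number of genes of each in brackets. In WT replicate 1 the replication-dependent histone genes were at 0.33 while the S phase genes were at -0.40 and the G2 and mitosis genes at -0.69.

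Where the deposited gene model ends, and how much sequence a gene shares with others, bear on what could be counted. The deposited end lay over 100 bases past the stem-loop for 9 members, among them H1f2 (840 bases) and H4c9 (330 bases), and these took 37.2% of the member counts. It lay within 100 bases for 22 members, with 14.9% of the counts, and no stem-loop was found for the other 17, with 47.9%, mostly H2bc21. The median level of these 3 sets was 0.429, 0.934 and 0.701 RPKM, a measure already divided by the deposited length. For 9 members the deposited length equalled that of an annotated coding part, so the model counted holds nothing beyond it. Over the 48 members, a median of 50.6% of the 50-base windows of a gene's GENCODE transcripts occurred in no other gene. Class medians ran from 32.9% for H2A and 39.6% for H3 to 97.7% for H1, and the lowest member was H3c10 at 6.08%. These transcripts can reach past the model counted, as for H1f3 with 7425 bases against 744. The shares are therefore not always those of the counted model. H2bc21 had 100% and H1f2 is also largely unshared, while reads that aligned to several places were left out of the gene counts. Such reads made up 22.6% to 23.9% of each library's total, with reads given to no gene included.

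**Figure D5:**
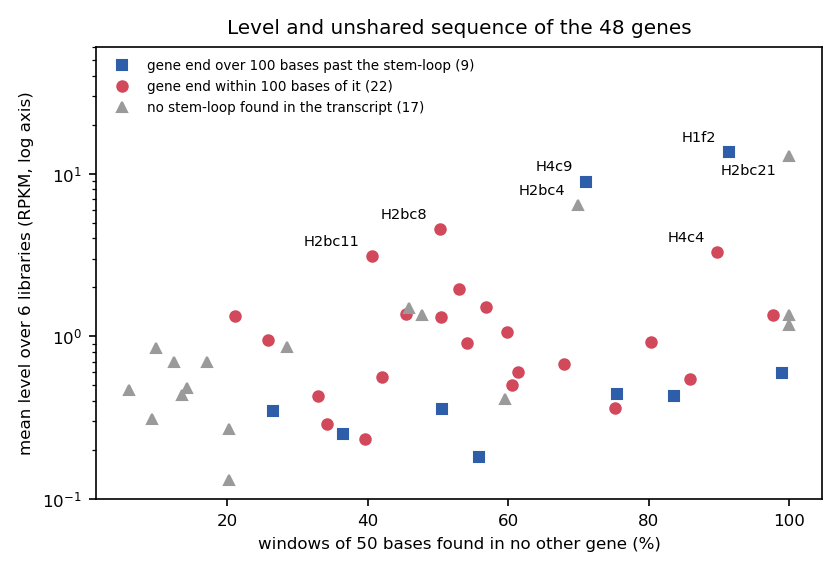
Mean level over 6 libraries (RPKM, log axis) of each of the 48 histone genes against the share of the 50-base windows of its GENCODE transcripts found in no other gene, with symbols for where the deposited gene ends relative to the stem-loop. H1f2, H2bc21, H4c9 and H2bc4 lay highest, all with mostly unshared sequence, and no gene with under 20% unshared windows exceeded 1 RPKM.

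Among the variant genes and the listed genes that make, degrade or use histone messages, none was called by edgeR, DESeq2 or limma-voom. The 10 tested replication-independent variants had 6 fold changes above 0 and 4 below, with a median of 0.04, and 1 had an unadjusted p under 0.05. That was H3f3b, which encodes the variant H3.3, at 896, 728 and 524 CPM in WT and 550, 560 and 489 CPM in KO (log2 fold change -0.43, SE 0.175, adjusted p = 0.733), with overlapping groups. H1f0, the linker histone of resting and differentiated cells, was at 76.8, 53.4 and 26.1 CPM in WT and 19.8, 35.0 and 34.4 CPM in KO (-0.81, SE 0.373, adjusted p = 0.75), again with overlap and with its highest value in WT replicate 1. The other 8 had log2 fold changes of -0.17 (H1f10), -0.03 (Macroh2a1), 0.04 (H2az1), 0.05 (H2aj and H3f3a), 0.07 (H2az2 and Cenpa) and 0.10 (H2ax).

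Of the 15 genes of histone gene transcription and 3′ end processing, none had an unadjusted p under 0.05, and 6 lay above 0 and 9 below (median -0.02). Slbp, the stem-loop binding protein, was at 116.7, 202 and 196 CPM in WT and 164, 150 and 170 CPM in KO (log2 fold change -0.09, edgeR adjusted p = 0.943). Its lowest library was WT replicate 1, where the histone genes were highest. Npat, the transcriptional activator of the clusters, was at 0.05, Casp8ap2, which works in processing, at -0.04, and Lsm10 and Lsm11, parts of the processing particle, at -0.07 and 0.23. The lowest p of the list belonged to Mblac1, a nuclease of histone message processing (-0.54, unadjusted p = 0.0508), and Hinfp, an activator of H4 genes (0.11, 0.174).

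The 7 genes of histone message decay had 6 fold changes above 0 and 1 below (median 0.03), with the lowest p for Lsm1 (0.19) and the uridylating enzyme Tut7 (0.10). The 19 histone chaperones had 7 above and 12 below (median -0.02), with the lowest p for Chaf1b, a subunit of the factor that loads histones on new DNA (-0.27), and Daxx, a chaperone of H3.3 (0.12). No gene of these lists had an unadjusted p under 0.05. Of the 27 S phase genes, 2 lay above 0 and 25 below (median -0.09), and 1 had an unadjusted p under 0.05 by edgeR. That was Gins2, a part of the replicative helicase, with a log2 fold change of -0.40 and an adjusted p of 0.713. Of the 18 G2 and mitosis genes, 17 lay above 0 and 1 below (median 0.13), with the lowest p for the mitotic kinase genes Plk1 (0.21) and Aurka (0.19) and none with an unadjusted p under 0.05. Both splits turned on single libraries: without WT replicate 1 all 18 G2 and mitosis genes lay below 0 (median -0.11) and all 27 S phase genes did (-0.27), and without WT replicate 2, 16 of the 27 S phase genes lay above 0 (0.01) and without WT replicate 3, 13 did (-0.001).

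Markers of other cells were looked at beside these values. The double-positive markers summed to 14513 to 16400 CPM in WT and 15328 to 16178 CPM in KO. Double-negative thymocyte markers, of the stage before, summed to 459 to 493 CPM in WT and 546 to 720 CPM in KO. Of the 7 tested genes, 4 were higher and 1 lower at an unadjusted p under 0.05 by edgeR. Their log2 fold changes ran from -0.52 to 1.01, with 5 above 0 and 2 below. They were 0.36 for Ptcra, the surrogate alpha chain, and 0.47 for Notch3. B cell markers summed to 18 to 26.9 CPM in WT and 21 to 30.8 CPM in KO, myeloid and dendritic markers to 86.7 to 91.2 and 90.3 to 113, and NK and gamma-delta markers to 26.4 to 40.4 and 39.1 to 47.9. At an unadjusted p under 0.05 and higher in KO were 2 of 4 tested B cell, 3 of 6 myeloid and dendritic, 1 of 2 NK and gamma-delta and 1 of 3 stromal and endothelial markers, where 3.41% of all tested genes were. With limma-voom, 1 B cell, 1 myeloid and dendritic and no NK and gamma-delta marker had an unadjusted p under 0.05, the DESeq2 counts were those of edgeR except that 1 myeloid and dendritic marker passed in place of 3, and none of the 3 tools called a gene of these lists. Red cell markers were under 0.61 CPM in every library, and of the stromal and endothelial markers, which summed to 153 to 180 CPM in WT and 149 to 160 CPM in KO, Foxn1 and Pdgfra were at 0. Their part in the histone values was not tested.

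The fold changes of the authors' deposited table were matched within 0.001 for 16448 of 16448 genes by DESeq2 with a block that sets replicate 3 of both groups apart, and what that block stands for is not given in the sources used here. In the authors' deposited table, 47 of the 48 members had an adjusted p and none was under 0.05, against 0.762% of the genes with one. The lowest adjusted p there was 0.567, for H2bc8 (log2 fold change -1.33), and H2bc12 had a log2 fold change of 1.15 (adjusted p = 0.733). Of the 48 deposited fold changes, 22 lay above 0 and 26 below, with a median of -0.05 in the authors' deposited table.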

How the data were processed

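RNA-seq libraries of sorted thymocytes, 3 KO and 3 WT, were processed by the submitters with Trimmomatic 0.33, STAR 2.5.2, HTSeq and DESeq2 on build mm10, per the submitters' processing notes. The sources used here give no counting mode, strand setting or annotation version. Raw gene counts of each library were deposited by the authors, with rows for reads in no gene (no feature, 12.3% to 15.2%; ambiguous, 0.653% to 0.701%; several alignments, 22.6% to 23.9%), and these rows entered neither library sizes nor tests. A second table of the authors holds a normalized signal (each count over a size factor of its library) and, per the file headers, log2 fold changes with standard errors, a score (the Wald statistic), p-values and adjusted p-values, all deposited from their own DESeq2 fit. It is named as paired, no label explains the pairing, and its fold changes were matched by a block that sets replicate 3 of both groups apart.

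Differences were tested on the counts of all genes with edgeR 4.0.16 in R 4.3.3 (TMM scaling, filterByExpr, a two-sided quasi-likelihood test with group as the sole term, Benjamini-Hochberg adjustment over all 13039 tested genes, threshold 0.05). Standard errors were obtained as the fold change on the log2 scale over the square root of F. The test was checked on simulated data with known fold changes between the groups. The simulation set no effect of single libraries beyond their size, so it does not speak to a library that stands apart. CPM are TMM-scaled, RPKM are CPM per kilobase of deposited gene length. Stem-loops and shared 50-base windows were searched in GENCODE M21 transcripts, and motifs in RefSeq promoters. DESeq2 1.42.0, limma-voom (limma 3.58.1), upper-quartile scaling, no count filter, blocks and leaving out each library were alternatives.

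The members and gene lists were chosen with earlier results of these data known. The rule for naming took the 3 members of highest mean RPKM in each class, the 6 tested members of lowest p, every tested variant, Slbp, Casp8ap2, Npat, Lsm10, Lsm11 and Mettl14, and the 2 genes of lowest p in each further list.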

Additional observations from a re-analysis of the deposited data

How the results depend on the processing

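No histone gene was called under any of the 12 alternatives run. The number of all genes called, 5 in the reported fit, was 88 with DESeq2 and 30 with no filter on low counts, and ran from 4 to 17 as each library was left out. The number of histone genes with an unadjusted p under 0.05, 1 in the reported fit, was 2 with DESeq2 (6.84% of all genes), 3 of 48 with no filter (6.999% of all) and 1 to 4 with a library left out (3.72% to 11.9% of all, with the 4 at 11.9%). Their median log2 fold change, -0.02, was -0.04 with upper-quartile scaling and ran from -0.15 to 0.17 as libraries were left out. The median deviation of the members from their gene means is a level rather than a fold change. Its SD between libraries of the same group, pooled over WT and KO, was 0.254. The targeted gene was called with DESeq2 (-0.49, adjusted p = 0.002). The cause of these shifts was not tested.

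Deviations of same-numbered KO and WT libraries correlated at -0.149, 0.0796 and 0.192 for replicates 1 to 3, and only replicate 3 correlated best with its own number (0.192 against 0.094), so the numbers were not taken to pair all libraries. With the number as a replicate block, 5 genes were called, 0 histone genes were called and the median was -0.02. There 2 histone genes had an unadjusted p under 0.05 by edgeR, against 6.09% of all tested genes. With replicate 3 of both groups set apart in a 2-level block, 0 histone genes were called and the median was -0.04. With the 2-level block 1 histone gene had an unadjusted p under 0.05 by edgeR, against 7.64% of all tested genes. DESeq2 with this block matched all 16448 deposited fold changes within 0.001, against 4169 with a block on replicate number and 4080 with group alone.

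Some fold changes of named genes changed sign. H1f3 (0.01 as reported) was -0.0666 with limma-voom, -0.0125 with upper-quartile scaling, -0.0327 with the replicate block and -0.0336 with the 2-level block, and H4c2 was 0.0186 with limma-voom. Leaving out single libraries gave -1.78 to 0.00649 for H1f2, -0.63 to 0.16 for H1f1, -0.28 to 0.29 for H1f3, -0.42 to 0.13 for H2ac8, -0.0169 to 0.18 for H2ac15, -0.12 to 0.47 for H2bc21, -0.14 to 0.67 for H2bc4, -0.30 to 0.39 for H4c9 and -0.33 to 0.31 for H4c2. It gave -0.17 to 0.28 for Cenpa, -0.00961 to 0.0787 for H2aj, -0.0752 to 0.22 for H2ax, -0.14 to 0.17 for H2az1, -0.0563 to 0.18 for H2az2 and -0.0793 to 0.0167 for Macroh2a1. It gave -0.11 to 0.00877 for Casp8ap2, -0.13 to 0.0161 for Lsm10, -0.0399 to 0.14 for Npat and -0.30 to 0.049 for Slbp. These comparisons covered the members named by the rule, the tested variants, Slbp, Casp8ap2, Npat, Lsm10, Lsm11 and Mettl14. They did not cover the genes of lowest p in the further lists. In all, 357 of the alternative values of the genes covered kept direction and side of the threshold, and 38 changed sign. Low counts limit the precision for most members: 20 of 48 were not tested.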
